A study of Mus musculus with 12 samples.

Results

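The type I interferon-stimulated antiviral genes are a set of 40 named mouse genes, followed here in 4T1-LUC mammary tumours from mice given curcumin, swimming exercise, both or neither. The set was defined by gene name and covers nucleic acid sensors, the receptor chains, the transcription factors of the pathway and its antiviral products, without the oligoadenylate synthetases. Rows for 38 of the 40 genes were found among the 21899 genes of the count table, and Mx1 and Mx2 were not analysed here. 4T1 is a mouse mammary carcinoma line of BALB/c origin, and the 4T1-LUC cells were injected under the skin of BALB/c mice that were 4 to 6 weeks old. Each tumour group comprised 5 mice by the labels' protocol and 3 sequenced libraries, 12 in all. The combination group (Tnm+union) was gavaged with curcumin in corn oil at 100 mg/kg in 200 µL each afternoon and then swam for 30 min. The swimming group (Tnm+swim) was gavaged with 200 µL of solution, which the treatment label gives as corn oil, and swam for 30 min, and the swimming itself is named only in the title and protocol. The curcumin group (Tnm+cur) was gavaged with curcumin at the same dose without swimming, and the control group (Tnm) was gavaged with corn oil only. All 4 groups carried tumours, so no tumour-free tissue entered any comparison. The labels name no separate animal for each library, and p-values therefore measure the spread between these libraries, which may be technical.

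Type I interferons are released when a cell detects foreign or misplaced nucleic acid, and they bind a receptor made of the IFNAR1 and IFNAR2 chains. Signalling from the receptor brings a factor that contains STAT2 and IRF9 to the interferon-stimulated response element (ISRE) in promoters. The induced genes block viral entry, RNA stability and translation, and several of them (the RNA sensors, IRF7, STAT2) feed the pathway again. In tumours the same genes are known as the interferon signature, to which both cancer cells and infiltrating immune cells can contribute.

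The libraries held 15069348 (curcumin 2) to 17278826 (control 2) counts, and the 38 genes had between 154 and 7691 counts in each library, so that none was limited by low counts. Groups differed in how closely their libraries resembled each other. The biological coefficient of variation over all genes was 6.47% in combination, 16.3% in swimming, 12.4% in curcumin and 26.7% in control libraries. The 3 combination libraries differed by 3.91 to 8.8 times the variance of counting (chi-square per degree of freedom), against 14.9 to 30.6 times in swimming, 7.57 to 24.3 times in curcumin and 25.8 to 80.7 times in control pairs, all above sampling noise. Whether the 3 come from separate tumours is not given by the labels, and median fold changes are also given with them summed into 1. Control 2 differed most from the other control libraries. Over the 38 genes the median coefficient of variation was 3.91% in combination, 13.8% in swimming, 6.83% in curcumin and 15.3% in control libraries.

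The ISRE core, searched as 2 copies of GAAA with any 2 bases between them (in reverse, 2 copies of TTTC), was looked for on both strands of the RefSeq promoters (build GRCm38.p6, 250 bases before to 50 bases after a listed start). A promoter was listed for 30 of the 38 genes, and 13 of them (43.3%) held the core, against 1079 of 27025 genes (3.99%) in the whole promoter table. The 16 members with a promoter that passed a test in at least 1 comparison held it in 9 cases and the 14 others in 4 cases, namely Bst2, Stat2, Ifit1 and Ifit3b. A match describes these letters only and is not a measured site of binding. The promoters below belong to 4 of the genes that were higher in combination than in control tumours, those of smallest adjusted p with an ISRE core, 1 each from the ADP-ribosylation and TRIM regulators, the sensors, the other effectors and the ISG15 pathway. They run from 200 bases before to 20 bases after a listed start of the gene, and all lie on the minus strand. Capitals mark the ISRE core, which in Isg15 occurs 3 times in overlapping copies.
Trim30a, chr7:104465174-104465393: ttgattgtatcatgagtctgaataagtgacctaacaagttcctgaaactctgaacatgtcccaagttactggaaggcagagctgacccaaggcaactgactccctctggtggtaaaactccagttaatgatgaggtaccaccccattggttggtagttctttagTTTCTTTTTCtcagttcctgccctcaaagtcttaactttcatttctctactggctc
Ddx58, chr4:40239806-40240025: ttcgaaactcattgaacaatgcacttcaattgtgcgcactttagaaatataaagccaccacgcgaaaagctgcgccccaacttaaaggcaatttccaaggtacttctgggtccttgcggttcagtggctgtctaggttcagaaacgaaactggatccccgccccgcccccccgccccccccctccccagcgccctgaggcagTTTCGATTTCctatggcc
Slfn8, chr11:83020791-83021010: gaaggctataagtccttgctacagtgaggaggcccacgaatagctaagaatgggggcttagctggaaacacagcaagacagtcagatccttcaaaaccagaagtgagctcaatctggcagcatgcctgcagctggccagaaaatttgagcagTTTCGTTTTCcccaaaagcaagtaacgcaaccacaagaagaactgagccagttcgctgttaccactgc
Isg15, chr4:156200799-156201018: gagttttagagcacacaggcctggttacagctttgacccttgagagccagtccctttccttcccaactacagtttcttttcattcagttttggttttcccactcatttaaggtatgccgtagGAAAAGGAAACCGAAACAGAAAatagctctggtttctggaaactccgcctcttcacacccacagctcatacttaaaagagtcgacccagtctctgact
The core began at -36 in Trim30a, at 3 in Ddx58, at -48 in Slfn8 and at -78, -72 and -66 in Isg15, counted from the start used here. Trim30a and Slfn8 also had another listed start, and counted from it a core began at 3 and at -136.

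On the length-corrected FPKM scale deposited by the authors, the set was well expressed in every group, with a median over genes of 22.1 FPKM against 6.15 FPKM for all 13638 genes tested. Bst2, which tethers budding virus to the cell surface, had the highest mean over the 12 libraries at 198.6 FPKM. Isg15 and Zbp1 followed at 56.2 FPKM each, and Herc6 was lowest at 4.82 FPKM. By group, Bst2 averaged 184 ± 17.1 FPKM in combination, 177 ± 14.0 FPKM in swimming, 230.4 ± 15.5 FPKM in curcumin and 202.5 ± 25.9 FPKM in control tumours (SD, n = 3 each). Rsad2, with one of the largest fold changes of the set, was among the 3 lowest at 6.04 FPKM.

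Averaged over swimming, the libraries of the groups given curcumin had higher levels of many of these genes than the libraries without curcumin. The largest averaged fold changes were in Rsad2, Cmpk2, Ifit2, Ifit3 and Ifi44. In curcumin without swimming against control, 0 of 38 members passed the test described next (smallest adjusted p = 0.158). The test was edgeR's quasi-likelihood test over all 13638 genes that passed the low-count filter, with Benjamini-Hochberg adjustment over all of them and a threshold of 0.05, and fold changes are given as log2 with their standard error. In combination against control tumours, 15 of 38 members rose and 1 fell, where 2.43% of all genes rose and 2.43% fell. The median log2 fold change of the 38 was 0.41, against -0.02 over all genes tested. For 24 members every combination library lay above every control library and for 2 every one lay below, compared with 16.3% and 15.8% of all genes. This count of 16 was 0 without combination 1, 0 without combination 2 and 0 without combination 3. With the 3 combination libraries summed into 1, the median was 0.415. That fit leaves 1 library in the group, so its calls are not given. The count of members called was also 5 without swimming 1, 9 without curcumin 1, 3 without curcumin 3, 6 without control 2 and 8 without control 3. Over all genes 4.86% were called with all libraries, and 0.145%, 0.0724% and 0.0289% without combination 1, 2 and 3. In the later fits the share was 1.97%, 2.83%, 1.3%, 2.29% and 2.35%, in the order given.

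With all curcumin-treated libraries set against all without curcumin (combination and curcumin against swimming and control, 6 against 6), 18 of 38 members rose and none fell, where 3.15% of all genes rose and 3.34% fell. In this averaged comparison the median log2 fold change was 0.35, and 34 of 38 values were positive. For 12 members all 6 curcumin-treated libraries lay above all 6 others, and for none below, compared with 1.58% and 1.28% of all genes. The 18 calls became 6, 5 and 2 without combination 1, 2 and 3, 5 without swimming 1, 10 without curcumin 2 and 1 without curcumin 3. With the combination libraries summed, the median was 0.348. Over all genes 6.49% were called with all libraries, and 0.456%, 0.355% and 0.123% without combination 1, 2 and 3. The share was 0.607% without swimming 1, 1.6% without curcumin 2 and 0.123% without curcumin 3. Cmpk2 alone among the 18 members passed the threshold in all 12 fits that left out a library, with adjusted p of at most 0.044. In bulk tumour RNA, a change in the number of cells of a type and a change in RNA per cell cannot be told apart.

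**Figure D1:**
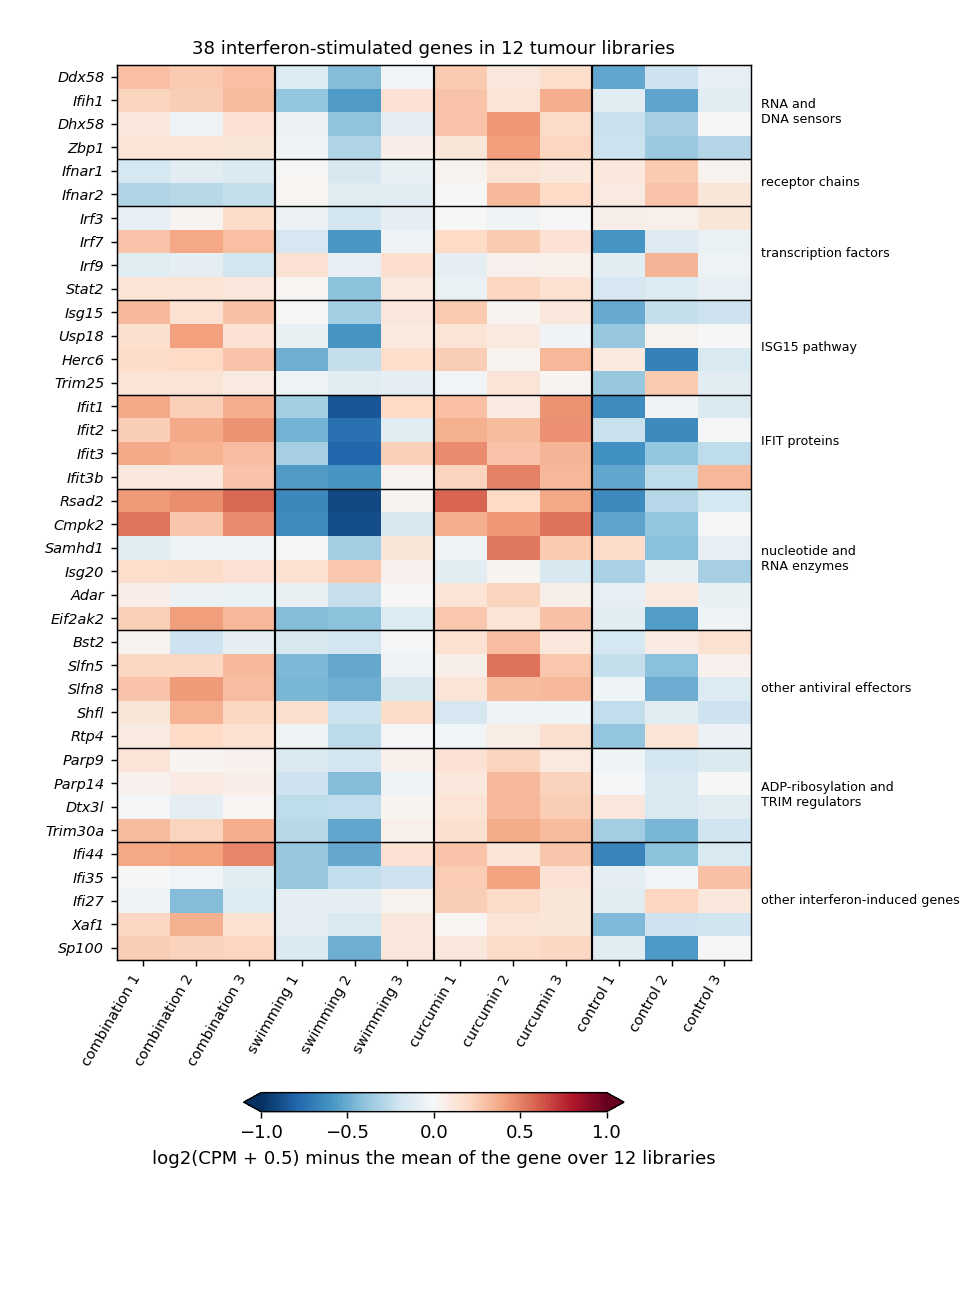
Level of the 38 genes in the 12 libraries, as log2 of CPM plus 0.5 minus the mean of each gene over all libraries, with genes in rows by role and libraries in columns. Combination and curcumin columns are mostly above 0 (red), swimming and control columns mostly below (blue), and swimming 2 is the lowest of the 12 libraries for 16 genes.

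Levels below are CPM (counts divided by library size and scaled by TMM), in library order 1 to 3. Among the sensors, Ddx58 (RIG-I, the sensor of viral RNA ends) had 112, 109 and 112 CPM in combination tumours, 82.7, 67.5 and 89.5 in swimming tumours, 109, 98.6 and 103 in curcumin tumours and 63.3, 79.0 and 85.9 in control tumours. Combination and curcumin values all lay above all swimming and control values. The log2 fold change was 0.55 ± 0.12 in combination against control (adjusted p = 0.031), 0.48 ± 0.12 in combination against swimming (adjusted p = 0.0357) and 0.46 ± 0.08 in the averaged comparison (adjusted p = 0.019). Zbp1, a sensor of Z-form nucleic acid that triggers necroptosis, had 214, 215 and 212 CPM in combination tumours, 190.5, 158 and 205 in swimming tumours, 212, 262 and 227 in curcumin tumours and 168, 150.5 and 159.6 in control tumours. All curcumin-treated libraries were again above all others, and combination exceeded control tumours by 0.42 ± 0.10 (adjusted p = 0.0398). Ifih1 (MDA5, the sensor of long double-stranded RNA) had 86.7, 88.1 and 92.8 CPM in combination tumours, 56.6, 49.9 and 82.1 in swimming tumours, 90.4, 81.1 and 95.7 in curcumin tumours and 68.6, 51.5 and 69.1 in control tumours. Swimming 3 reached into the range of curcumin 2, and the gene passed the threshold in the averaged comparison (0.50 ± 0.12, adjusted p = 0.0325) and in neither single one (combination against control 0.50 ± 0.16, adjusted p = 0.0871). Dhx58 (LGP2, a regulator of both RNA sensors) had 31.4, 28.3 and 32.3 CPM in combination tumours, 28.0, 21.9 and 27.3 in swimming tumours, 35.7, 39.6 and 33.4 in curcumin tumours and 24.9, 23.1 and 29.5 in control tumours. The curcumin libraries lay above all 9 others, combination 2 lay below control 3, and Dhx58 rose in the averaged comparison (0.37 ± 0.09, adjusted p = 0.0334).

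The receptor chains did not follow the sensors. Ifnar2 had 23.5, 23.8 and 24.5 CPM in combination tumours, 29.4, 26.6 and 26.9 in swimming tumours, 29.1, 36.7 and 33.4 in curcumin tumours and 30.8, 35.4 and 31.7 in control tumours. The combination libraries lay below all 9 others, and the gene fell in combination against control tumours (log2 fold change -0.45 ± 0.11, adjusted p = 0.0383), the one member of the 38 that fell there. Against curcumin tumours the log2 difference in combination tumours was -0.47 ± 0.11 (adjusted p = 0.0607), short of the threshold. Ifnar1 averaged 122 ± 2.47 CPM in combination, 128 ± 7.78 in swimming, 144 ± 5.1 in curcumin and 148 ± 11.9 in control tumours (SD, n = 3 each), with a log2 difference of -0.28 ± 0.08 in combination against control (adjusted p = 0.0555). Curcumin without swimming left both chains near the control level, at 0.02 ± 0.11 for Ifnar2 and -0.05 ± 0.08 for Ifnar1 (adjusted p = 0.959 and 0.85).

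Of the transcription factors, Irf7, which amplifies interferon production, had 124, 133 and 126 CPM in combination tumours, 90.8, 68.0 and 99.3 in swimming tumours, 117, 122 and 113 in curcumin tumours and 67.5, 93.3 and 97.2 in control tumours. The curcumin-treated libraries did not overlap the rest, and combination 1 to 3 also lay above curcumin 1 to 3. Irf7 rose in combination against control (0.57 ± 0.14, adjusted p = 0.0453), in combination against swimming (0.57 ± 0.15, adjusted p = 0.0385) and in the averaged comparison (0.51 ± 0.10, adjusted p = 0.0238). Stat2, Irf9 and Irf3, the signalling partners, passed no test. Stat2 averaged 299 ± 2.72 CPM in combination, 259 ± 46.8 in swimming, 294 ± 29.1 in curcumin and 250.4 ± 7.41 in control tumours (SD, n = 3 each). Irf9 had its highest library in control 2 at 178 CPM, and its log2 difference in combination against control was -0.21 ± 0.11 (adjusted p = 0.261). Irf3, which is activated by phosphorylation rather than by more RNA, differed by -0.03 ± 0.09 in the same comparison (adjusted p = 0.872).

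In the ISG15 pathway, Isg15, the ubiquitin-like protein that is coupled to other proteins, had 48.7, 43.2 and 47.8 CPM in combination tumours, 38.8, 30.7 and 42.1 in swimming tumours, 46.8, 39.6 and 42.1 in curcumin tumours and 27.3, 32.9 and 33.6 in control tumours. Every combination and curcumin library lay above every control library, and swimming 3 lay within the curcumin range. Isg15 rose in combination against control (0.57 ± 0.13, adjusted p = 0.0333) and in the averaged comparison (0.39 ± 0.09, adjusted p = 0.0319). Usp18 removes ISG15 and dampens the receptor, Herc6 is the main ISG15 ligase in mice, and Trim25 is a ubiquitin ligase that acts on RIG-I. None of these 3 passed a test, with log2 differences in combination against control of 0.36 ± 0.17 for Usp18, 0.44 ± 0.19 for Herc6 and 0.17 ± 0.12 for Trim25 (adjusted p = 0.194, 0.167 and 0.395).

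The 4 IFIT genes, whose proteins bind foreign RNA and block its translation, lie side by side on chromosome 19 between 34528094 and 34627409 as listed in the authors' table. Ifit2 had 68.5, 75.4 and 79.0 CPM in combination tumours, 41.6, 34.2 and 53.3 in swimming tumours, 73.9, 72.0 and 79.6 in curcumin tumours and 49.5, 36.9 and 57.0 in control tumours. No curcumin-treated library overlapped the others, and Ifit2 rose in combination against control (0.64 ± 0.17, adjusted p = 0.0478), in combination against swimming (0.79 ± 0.17, adjusted p = 0.0214) and in the averaged comparison (0.72 ± 0.12, adjusted p = 0.0138). Ifit3 had 43.6, 42.7 and 41.5 CPM in combination tumours, 26.4, 19.2 and 39.5 in swimming tumours, 46.6, 40.8 and 42.5 in curcumin tumours and 21.7, 25.4 and 28.0 in control tumours. Swimming 3 stood close below the curcumin-treated range while swimming 2 was the lowest of all 12, and Ifit3 rose in combination against control (0.77 ± 0.20, adjusted p = 0.0478) and in the averaged comparison (0.69 ± 0.14, adjusted p = 0.0243). Ifit1 and Ifit3b passed no test, with averaged log2 differences of 0.57 ± 0.16 and 0.50 ± 0.16 (adjusted p = 0.055 and 0.0684). Ifit3 and Ifit3b are close copies, and reads that match both may have been dropped or misassigned in counting, so their separate values are uncertain.

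Among the nucleotide and RNA enzymes, Rsad2 and Cmpk2 had the largest fold changes of the set in the averaged comparison. Rsad2 (viperin, which makes a chain-terminating nucleotide) had 33.2, 34.2 and 36.9 CPM in combination tumours, 15.6, 12.9 and 25.1 in swimming tumours, 37.1, 28.4 and 32.3 in curcumin tumours and 15.7, 20.1 and 21.8 in control tumours. Its neighbour on chromosome 12, Cmpk2, a nucleotide kinase of mitochondria, had 63.0, 52.5 and 60.4 CPM in combination tumours, 27.8, 23.3 and 38.7 in swimming tumours, 55.7, 58.5 and 63.2 in curcumin tumours and 29.9, 33.0 and 42.6 in control tumours. For both genes all curcumin-treated libraries lay above all others. Rsad2 rose in combination against control (0.86 ± 0.21, or 1.81-fold, adjusted p = 0.04), in combination against swimming (0.96 ± 0.21, adjusted p = 0.0235) and in the averaged comparison (0.86 ± 0.15, adjusted p = 0.0162). Cmpk2 rose in the same comparisons, by 0.74 ± 0.17 (adjusted p = 0.0375), 0.97 ± 0.17 (adjusted p = 0.0132) and 0.86 ± 0.12 (adjusted p = 0.00972). Eif2ak2 (PKR, which halts translation on double-stranded RNA) had 162, 183 and 173 CPM in combination tumours, 101, 103 and 125 in swimming tumours, 165, 151 and 168 in curcumin tumours and 128, 92.7 and 133 in control tumours, with no overlap between curcumin-treated libraries and the rest. It rose by 0.55 ± 0.13 in combination against control (adjusted p = 0.0362), by 0.66 ± 0.13 in combination against swimming (adjusted p = 0.0166) and by 0.55 ± 0.09 in the averaged comparison (adjusted p = 0.0138).

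Isg20, an exonuclease that degrades viral RNA, had another pattern among these enzymes. It had 42.7, 43.0 and 42.0 CPM in combination tumours, 42.2, 45.9 and 39.0 in swimming tumours, 34.9, 38.6 and 33.9 in curcumin tumours and 30.1, 36.0 and 30.0 in control tumours. Combination and swimming libraries all lay above all control libraries, and curcumin libraries overlapped the controls. Isg20 rose in combination against control (0.41 ± 0.10, adjusted p = 0.0427), and in swimming against control its log2 difference was 0.40 ± 0.10 with an adjusted p of 0.128 (0.0269 with DESeq2). Samhd1, which hydrolyses deoxynucleotides, and Adar, which edits adenosine in double-stranded RNA, passed no test, and their log2 differences in combination against control were 0.01 ± 0.17 and 0.00 ± 0.09 (adjusted p = 0.966 and 0.996).

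**Figure D2:**
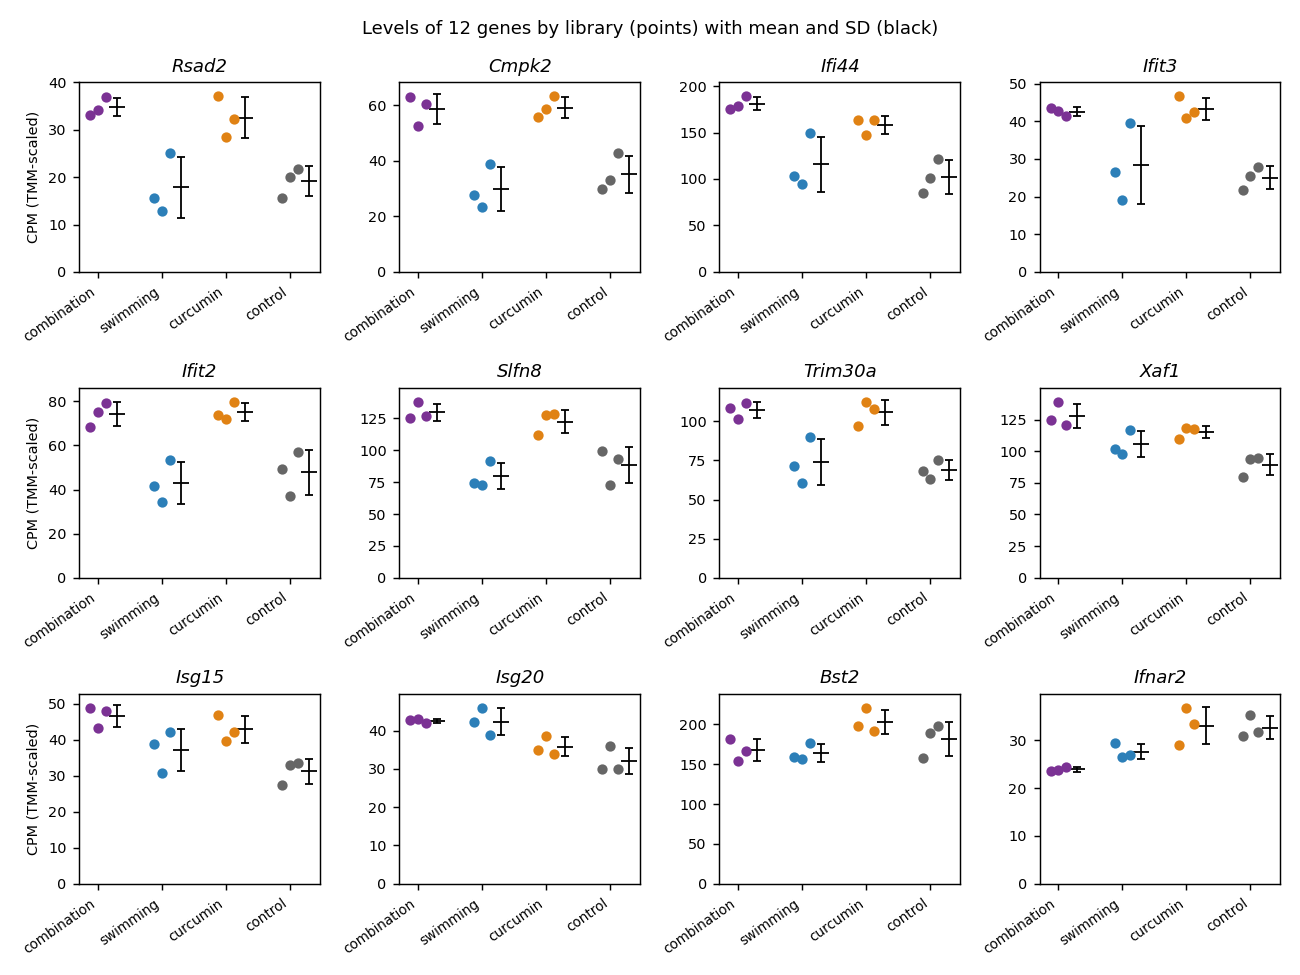
CPM of 12 of the genes in each library (points, libraries 1 to 3 from left to right) with the group mean and SD in black, n = 3 per group, and axes starting at 0. Rsad2, Cmpk2, Ifit2 and Slfn8 are high in combination and curcumin libraries, Isg20 is high in combination and swimming libraries, and Ifnar2 is lowest in combination libraries.

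Of the other effectors, Slfn8, a member of the Schlafen family, had 125, 138 and 127 CPM in combination tumours, 74.6, 72.9 and 91.5 in swimming tumours, 112, 128 and 128 in curcumin tumours and 99.5, 72.6 and 93.2 in control tumours. All curcumin-treated libraries were above all others, and Slfn8 rose in combination against control (0.56 ± 0.12, adjusted p = 0.0317), in combination against swimming (0.71 ± 0.12, adjusted p = 0.0118) and in the averaged comparison (0.59 ± 0.09, adjusted p = 0.0101). Slfn5, of the same family, had 42.5, 42.6 and 46.3 CPM in combination tumours, 26.8, 25.7 and 35.9 in swimming tumours, 38.5, 53.9 and 44.4 in curcumin tumours and 31.2, 27.5 and 37.9 in control tumours. These groups did not overlap either, and Slfn5 rose in the averaged comparison (0.54 ± 0.11, adjusted p = 0.0243). Shfl (shiftless, an inhibitor of ribosomal frameshifting by viruses) had 71.8, 84.0 and 75.9 CPM in combination tumours, 73.8, 56.7 and 74.8 in swimming tumours, 58.5, 64.1 and 63.8 in curcumin tumours and 55.4, 61.3 and 57.0 in control tumours. It was above both curcumin and control tumours in every combination library, and it rose in combination against control (0.42 ± 0.11, adjusted p = 0.0487). Bst2 and Rtp4 passed no test, with log2 differences in combination against control of -0.11 ± 0.10 and 0.24 ± 0.12 (adjusted p = 0.492 and 0.217). Schlafen genes lie in a family of similar copies, so reads of Slfn8 that also match its relatives may have been dropped or misassigned.

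Trim30a, a mouse TRIM protein that restrains Toll-like receptor signalling, had 108, 102 and 112 CPM in combination tumours, 71.7, 60.3 and 89.7 in swimming tumours, 97.0, 112 and 108 in curcumin tumours and 68.0, 63.0 and 75.3 in control tumours. Its curcumin-treated libraries lay above all others, and it rose in combination against control (0.64 ± 0.13, adjusted p = 0.023), in combination against swimming (0.54 ± 0.13, adjusted p = 0.0296) and in the averaged comparison (0.58 ± 0.09, adjusted p = 0.0138). Parp14, an enzyme that attaches single ADP-ribose units, had 297, 306 and 303 CPM in combination tumours, 249.7, 214 and 281 in swimming tumours, 310.5, 362 and 339 in curcumin tumours and 284, 260.4 and 288 in control tumours. Parp9, an inactive relative that pairs with the ligase Dtx3l, had 149, 139 and 140.5 CPM in combination tumours, 123, 119.5 and 141 in swimming tumours, 150.5, 159 and 146 in curcumin tumours and 132, 119.6 and 124 in control tumours. Parp14 and Parp9 rose in the averaged comparison by small amounts, 0.28 ± 0.07 and 0.22 ± 0.06 (adjusted p = 0.0365 and 0.0445), and Parp9 overlapped between swimming 3 and the combination libraries. Dtx3l passed no test (0.20 ± 0.07, adjusted p = 0.0858 in the averaged comparison).

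The remaining interferon-induced genes were led by Ifi44, an inhibitor of cell proliferation and viral replication, which had 176, 178 and 189 CPM in combination tumours, 103, 94.5 and 149 in swimming tumours, 164, 147 and 163 in curcumin tumours and 84.8, 101 and 121 in control tumours. Swimming 3 lay just above curcumin 2, whereas combination libraries lay above all 9 others. Ifi44 rose in combination against control (0.82 ± 0.16, adjusted p = 0.0228), in combination against swimming (0.64 ± 0.16, adjusted p = 0.0354) and in the averaged comparison (0.64 ± 0.11, adjusted p = 0.0178). Xaf1, which opposes the apoptosis inhibitor XIAP, had 125, 139 and 121 CPM in combination tumours, 102, 97.4 and 117 in swimming tumours, 109.7, 118 and 118 in curcumin tumours and 79.5, 94.0 and 94.3 in control tumours. Combination libraries were again the highest, control libraries the lowest, and Xaf1 had the smallest adjusted p of the set in combination against control (0.52 ± 0.10, adjusted p = 0.0192), with 0.32 ± 0.07 in the averaged comparison (adjusted p = 0.0243). Sp100, of the nuclear bodies, and Ifi35 and Ifi27 passed no test, with 0.45 ± 0.15, -0.12 ± 0.14 and -0.27 ± 0.11 in combination against control (adjusted p = 0.0933, 0.615 and 0.144).

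Curcumin without swimming gave fold changes of similar size against control tumours, without any passing the threshold. The median log2 fold change of the 38 genes was 0.38, against 0.00 over all genes, and 35 of 38 were positive. Rsad2 differed by 0.76 ± 0.21 (adjusted p = 0.293), Cmpk2 by 0.75 ± 0.17 (adjusted p = 0.28), Ifit3 by 0.79 ± 0.20 (adjusted p = 0.281) and Zbp1 by 0.55 ± 0.10 (adjusted p = 0.158, the smallest). With edgeR 0 of 38 members passed, where 0.0% of all genes rose and 0.0% fell, and 22 members had an unadjusted p under 0.05, as had 10.9% of all genes. DESeq2 called 5 members (Zbp1, Ifit3, Cmpk2, Trim30a and Ifi44, all higher) and 0.434% of the genes it tested, and limma called 0 of both. For 22 members every curcumin library lay above every control library and for 1 below, compared with 7.41% and 7.22% of all genes. This comparison and that of combination against control use the same 3 control libraries.

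Swimming without curcumin gave no general shift of the set against control tumours. The median log2 fold change was -0.01, 16 of 38 were positive, and 0 members passed in edgeR, where 0.154% of all genes rose and 0.154% fell. The 16 positive values became 5 without swimming 3 (median -0.14) and 22 without swimming 2 (median 0.09). At an unadjusted p under 0.05 there were 6 members and 13% of all genes. DESeq2 called 1 member (Isg20, higher) and 1.77% of the genes it tested, limma called 0 of both, and without control 2 edgeR called 1 member and 4.36% of all genes. Isg20 and Xaf1 had every swimming library above every control library, and Ifnar1, Ifnar2, Irf3 and Ifi35 every one below, which is 2 and 4 of 38 against 5.83% and 7.24% of all genes. The swimming libraries disagreed among themselves: swimming 2 was below the mean of the other two for all but 2 members, with a median log2 difference of -0.31, and swimming 3 was above the mean of the other two for 34 members, with a median of 0.28.

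Set against curcumin tumours, the genes in combination tumours had a median log2 fold change of 0.01 and 20 of 38 values positive. With edgeR 0 members passed, where 0.359% of all genes rose and 0.491% fell, and 8 had an unadjusted p under 0.05, as had 18% of all genes. DESeq2 called 1 member (Ifnar2, lower) and 3.92% of the genes it tested. Limma with a weight per group called 14.2% of all genes and 8 members, of which Isg20 and Shfl were higher and Ifnar1, Ifnar2, Bst2, Dtx3l, Ifi35 and Ifi27 were lower. Without control 2 edgeR called 2 members and 5.17% of all genes. For 7 members every combination library lay above every curcumin library and for 9 below, compared with 18.6% and 18.5% of all genes. Against swimming tumours, 9 of 38 members rose in combination tumours and none fell, where 3.5% of all genes rose and 3.15% fell, and the median was 0.28 with 33 of 38 values positive. For 26 members every combination library lay above every swimming library and for 2 below, compared with 20.4% and 20.2% of all genes. The 9 calls became 1, 0 and 1 without combination 1, 2 and 3. They became 0 without swimming 1, 5 without swimming 2, 5 without curcumin 3 and 14 without control 2. Over all genes 6.66% were called with all libraries, and 0.644%, 0.225% and 0.585% without combination 1, 2 and 3. The share was 0.788% without swimming 1, 7.43% without swimming 2, 3.38% without curcumin 3 and 19.5% without control 2.

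Whether the effect of curcumin differed with swimming was tested by the interaction term. With edgeR 0 of 38 members passed, where 0.161% of all genes rose and 0.088% fell, the median was 0.00, 1 member had an unadjusted p under 0.05 (Zbp1, -0.34 ± 0.15, adjusted p = 0.426) against 11% of all genes, and DESeq2 and limma also called 0 members. The standard errors of the members' interaction terms limit what this test can show, for example 0.24 for Cmpk2 around an estimate of 0.22 and 0.29 for Rsad2 around 0.19.

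**Figure D3:**
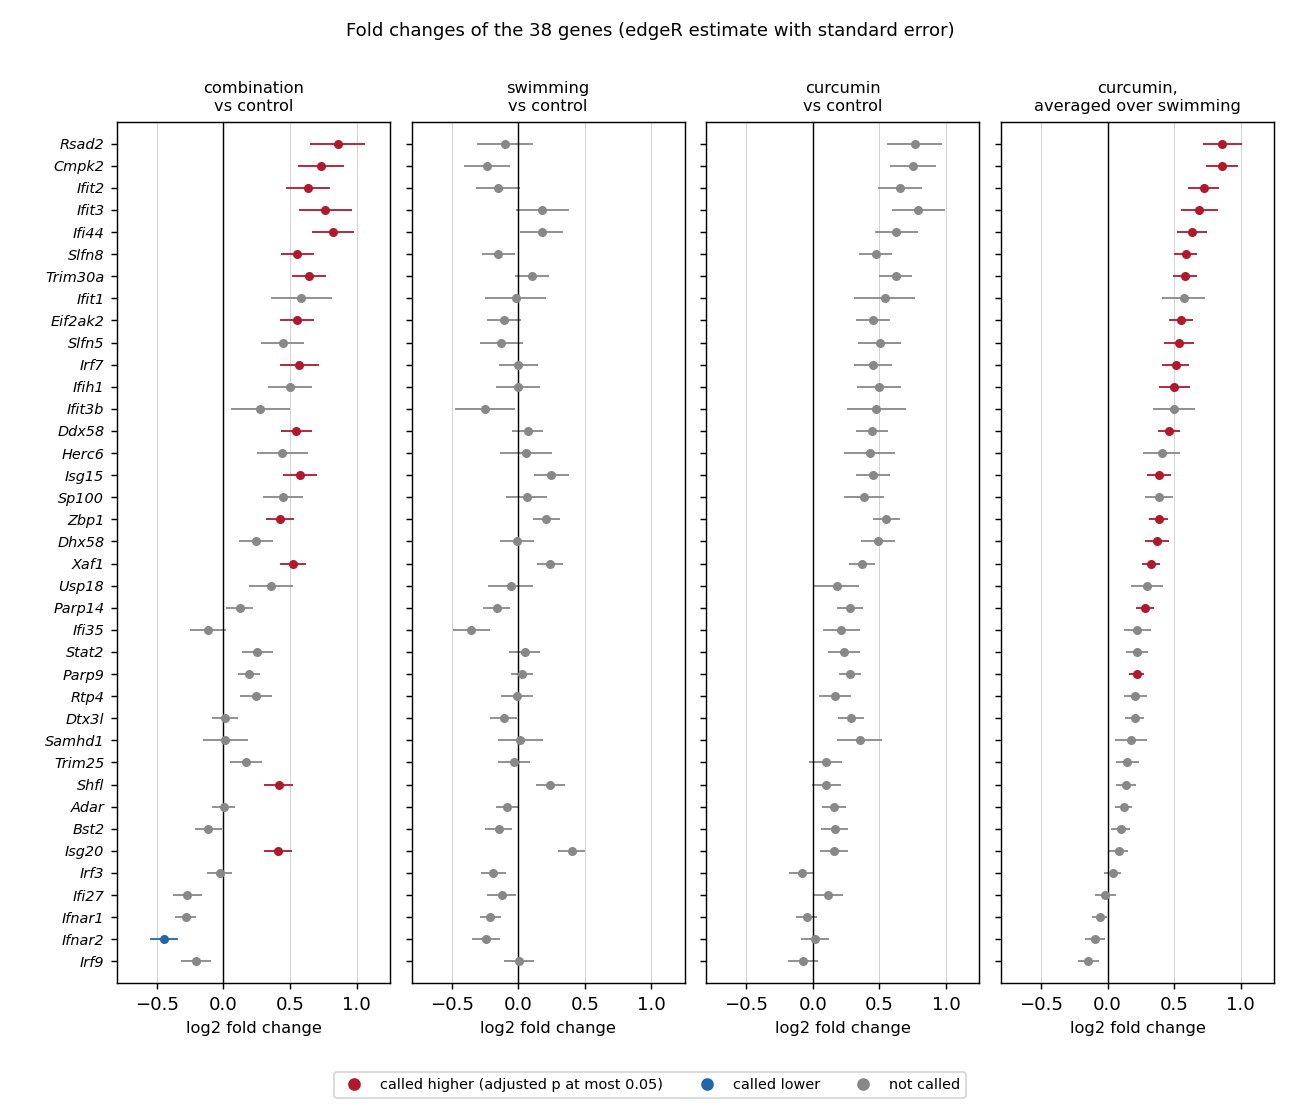
Log2 fold change (point) with its standard error (line) of each of the 38 genes in 4 comparisons, ordered by the averaged comparison. Red points rose and blue points fell at an adjusted p of at most 0.05, with 16 calls in combination against control, 0 in swimming or curcumin against control and 18 in the averaged comparison.

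Other genes of the pathway were counted over lists. Calls in these lists and in the cell marker lists below are from the fit with all 12 libraries. They are not given for the fits that left out a library. The interferon genes themselves were almost absent: of 21 in the table, 15 (the interferon alpha genes, Ifnab and Ifnl2) had 0 counts in all 12 libraries, none passed the filter, and the summed level was 0.06 to 0.42 CPM in combination, 0.20 to 1.63 in swimming, 0.39 to 1.22 in curcumin and 0.53 to 1.09 CPM in control libraries. Ifnb1, interferon beta, had 6 counts and Ifng, the type II interferon, had 58 counts over all 12 libraries, and 3 counts in 1 library correspond to 0.174 to 0.199 CPM. Every combination library had a lower sum than every control library, on 14 counts over the 3 combination libraries against 44 over the 3 control libraries, while swimming and curcumin libraries overlapped the controls. With no interferon gene past the filter, none was tested. Of 59 further interferon-stimulated genes tested, 4 rose and none fell in combination against control (median 0.16), where 2.43% of all genes rose. In combination against swimming 7 rose (median 0.18), where 3.5% of all genes did. In the averaged comparison 15 rose (median 0.24), where 3.15% did. In curcumin against control (median 0.27) and in swimming against control (median 0.05) 0 passed, where 0.0% and 0.154% of all genes rose. Ly6a had 90.1, 89.7 and 98.3 CPM in combination tumours, 49.3, 58.1 and 60.6 in swimming tumours, 101, 135 and 99.8 in curcumin tumours and 70.8, 61.5 and 69.8 in control tumours, which was 0.73 ± 0.09 in the averaged comparison (adjusted p = 0.00511). Ly6e, a membrane protein that restricts coronaviruses, had 434, 482 and 416 CPM in combination tumours, 297, 237 and 324 in swimming tumours, 378, 433 and 391 in curcumin tumours and 254, 252 and 293 in control tumours. It rose in combination against control (0.74 ± 0.12, adjusted p = 0.0119) and in the averaged comparison (0.61 ± 0.08, adjusted p = 0.0073), and Phf11d rose in both too (0.54 ± 0.11 and 0.49 ± 0.08, adjusted p = 0.0249 and 0.0138). For Ly6a and Ly6e no curcumin-treated library overlapped the others.

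Of 20 tested genes of upstream sensing and signalling, none passed in combination against control, and the median was -0.13. Cgas, the sensor of cytosolic DNA, had 25.4, 26.6 and 26.6 CPM in combination tumours, 15.3, 17.6 and 15.2 in swimming tumours, 24.5, 21.2 and 22.1 in curcumin tumours and 20.9, 12.7 and 20.4 in control tumours, and it rose in combination against swimming (0.71 ± 0.17, adjusted p = 0.0284) and in the averaged comparison (0.52 ± 0.12, adjusted p = 0.0288). Tlr3, a receptor for double-stranded RNA, rose in combination against swimming (0.62 ± 0.16, adjusted p = 0.0408), and Ikbke, a kinase that activates IRF3, fell in combination against curcumin (-0.54 ± 0.09, adjusted p = 0.0262). Of 20 genes of receptor signalling and feedback, 1 fell and none rose in combination against control (median -0.13), where 2.43% of all genes fell. That gene was Irf1, a transcription factor induced mainly by interferon gamma, with 132, 135 and 126 CPM in combination tumours, 177, 153 and 184 in swimming tumours, 196, 240.3 and 206 in curcumin tumours and 171, 172 and 166 in control tumours. The combination libraries lay below all others, and Irf1 fell against control (-0.37 ± 0.09, adjusted p = 0.0415), curcumin (-0.71 ± 0.09, adjusted p = 0.011) and swimming (-0.38 ± 0.09, adjusted p = 0.031), with an interaction of -0.72 ± 0.13 (adjusted p = 0.0482). Over all genes, the interaction test called 34 genes with all libraries. It called 1 gene without combination 1, 1 without combination 2, 1 without combination 3 and 0 without swimming 1. In combination against curcumin, 116 genes were called with all libraries, and 5, 3 and 3 without combination 1, 2 and 3. Ptpn6, a phosphatase, fell in combination against curcumin (-0.56 ± 0.11, adjusted p = 0.0369), and Il10rb, a receptor chain of the interleukin 10 and interferon lambda receptors, fell in swimming against control (-0.79 ± 0.14, adjusted p = 0.0389).

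The samples are labelled as breast cancer cells, and the tumour pieces also carried markers of other cells that moved with the groups. Epithelial markers were present in all libraries, with 9 of 10 counted in each, and their sum was 3499 to 3638 CPM in combination, 3275 to 3756 in swimming, 2908 to 3366 in curcumin and 3504 to 3579 CPM in control libraries. Macrophage markers, 10 of 10 counted, summed to 992 to 1016 CPM in combination, 724 to 1259 in swimming, 1126 to 1769 in curcumin and 1015 to 1914 CPM in control libraries, so the combination tumours did not exceed the controls. T cell markers, 9 of 9, summed to 67.0 to 73.2 CPM in combination, 21.7 to 120.2 in swimming, 82.6 to 147 in curcumin and 52.8 to 119.7 CPM in control libraries, and swimming 2 was the lowest of all 12. Plasmacytoid dendritic cell markers, a cell known for large interferon output, had 4 of 8 counted in each library. They summed to 270.4 to 283.5 CPM in combination, 242.5 to 365 in swimming, 228 to 279 in curcumin and 251 to 315 CPM in control libraries. The sums hide single markers. The 5 tested had a median log2 fold change of -0.84 in combination against control, 0.72 in curcumin against control and -1.61 in combination against curcumin. Of these 5, 1, 4 and 1 were positive, and none passed the threshold there. B cell markers stayed at 0.859 to 2.25 CPM, and natural killer markers at 30.8 to 100.0 CPM, over the 12 libraries with Klra8 at 0.

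Stromal, adipocyte and neutrophil markers differed more. Fibroblast markers, 9 of 9, summed to 5486 to 5849 CPM in combination, 1894 to 3447 in swimming, 4451 to 5508 in curcumin and 1303 to 4663 CPM in control libraries, lowest in control 2, and Pdgfrb rose in the averaged comparison (0.66 ± 0.17, adjusted p = 0.0469). Endothelial markers, 9 of 9, summed to 434 to 492 CPM in combination, 142 to 242 in swimming, 289 to 298 in curcumin and 280.1 to 408 CPM in control libraries. In combination against swimming 7 of 9 rose (median log2 fold change 1.27), among them Plvap (1.27 ± 0.15, adjusted p = 0.00335), where 3.5% of all genes rose. In the averaged comparison 5 of 9 endothelial markers rose (median 0.45), where 3.15% of all genes rose. In combination against control 1 of 9 did (Emcn, 1.00 ± 0.22, adjusted p = 0.0318), where 2.43% did. The curcumin difference was not alike with and without swimming. In curcumin against control the median was -0.17, with 1 of 9 positive, and in swimming against control -0.75, with 0 positive. In the interaction 9 of 9 were positive (median 1.40), and Pecam1 and Plvap passed (adjusted p = 0.0466 and 0.0339). Over all genes, the interaction test called 34 genes with all libraries and 1 without combination 1, 2 or 3. Without swimming 1 it called 0. In both the fibroblast and the endothelial sums every combination library lay above every swimming library. Skeletal muscle markers summed to 64.8 to 69.9 CPM in combination, 22.4 to 164 in swimming, 309 to 404 in curcumin and 10.5 to 424 CPM in control libraries. Adipocyte markers, with 2 of 8 counted in each library, summed to 32.2 to 35.05 CPM in combination, 13.1 to 14.7 in swimming, 14.4 to 17.05 in curcumin and 10.5 to 22.8 CPM in control libraries. Of 5 tested adipocyte markers 3 rose in combination against control (median 6.01), where 2.43% of all genes rose. They were Cfd (6.07 ± 1.13, adjusted p = 0.0195), Cidec (6.01 ± 1.09, adjusted p = 0.0217) and Pck1 (7.41 ± 1.39, adjusted p = 0.0234). These fold changes are of uncertain size at such low levels. Of 10 tested neutrophil markers 3 fell in combination against control and 1 was positive (median -1.58), where 2.43% of all genes fell. Retnlg and Padi4 were among these 3 (-3.12 ± 0.58 and -0.55 ± 0.08, adjusted p = 0.0195 and 0.0112). Against swimming 4 neutrophil markers fell (median -1.58), where 3.15% of all genes fell. Of 7 tested conventional dendritic cell markers, Zbtb46 alone fell in combination against control (-0.50 ± 0.13, adjusted p = 0.0499). Mitochondrially encoded transcripts summed to 48640 to 62330 CPM in combination, 44010 to 50340 in swimming, 32400 to 39700 in curcumin and 30220 to 41440 CPM in control libraries. All 10 that were tested had a positive log2 fold change in combination against control (median 0.53), and mt-Nd2, mt-Nd5, mt-Nd6 and mt-Co1 rose, where 2.43% of all genes rose. The part of these cell types and of RNA quality in the differences of the interferon-stimulated genes was not tested.

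**Figure D4:**
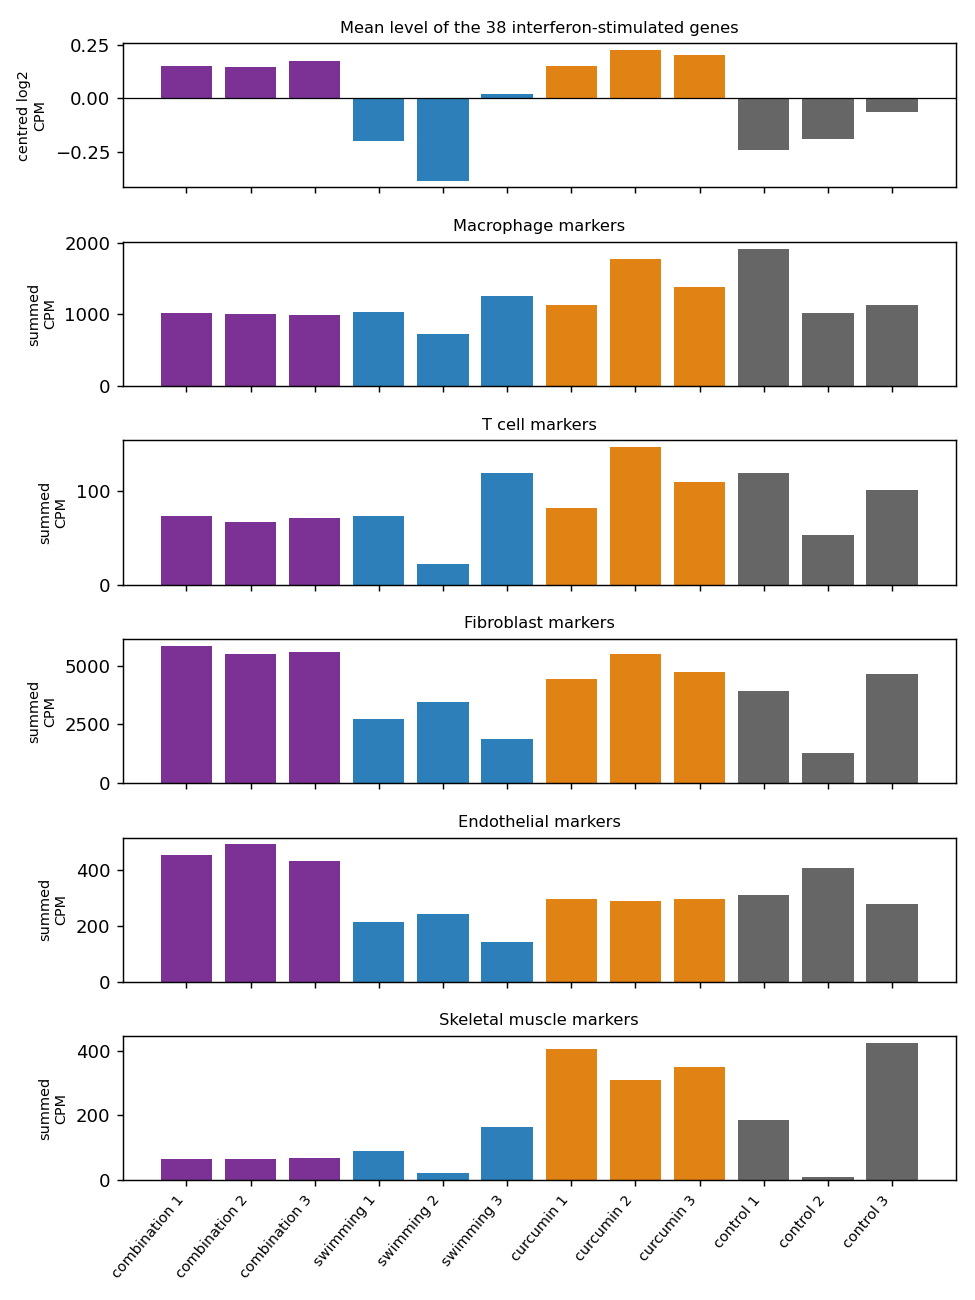
Mean centred log2 level of the 38 genes (top) and summed CPM of 5 marker lists in each library, with bars coloured by group. The top panel gives 0.15, 0.15 and 0.17 in combination, -0.20, -0.38 and 0.02 in swimming, 0.15, 0.23 and 0.20 in curcumin and -0.24, -0.19 and -0.06 in control libraries.

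**Figure D5:**
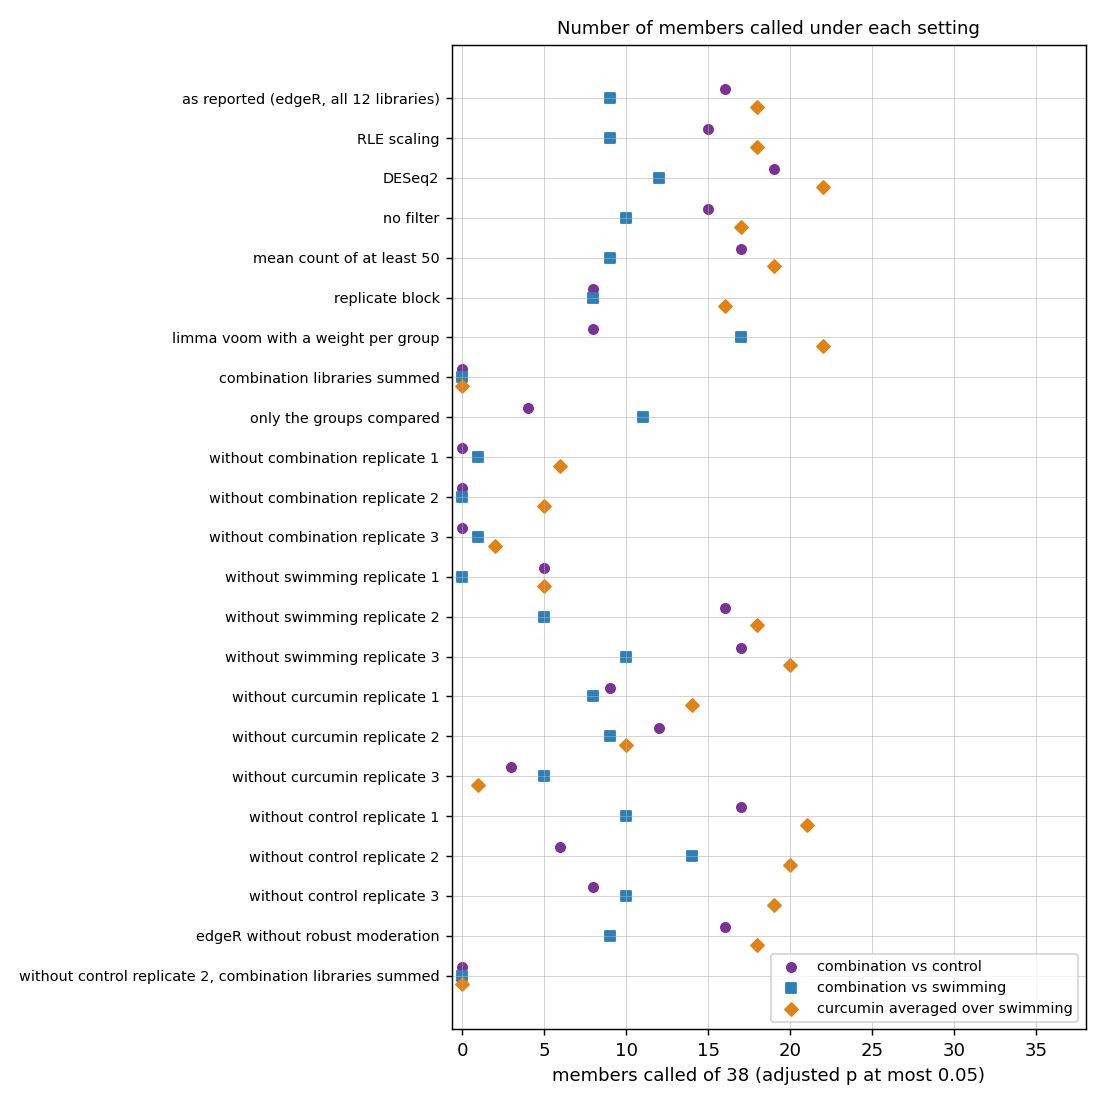
Number of the 38 genes that passed an adjusted p of 0.05 under each processing setting, for combination against control, combination against swimming and the averaged curcumin comparison. The settings with summed combination libraries leave 1 library in that group, so their counts are not read as results about the genes. Leaving out any 1 combination library gives 0 to 6, where at most 0.644% of all genes are called.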

How the data were processed

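RNA of 12 tumour libraries was sequenced, 3 in each of 4 groups taken from the sample titles. Per the labels' protocols, reads were trimmed, aligned with HISAT2 2.0.5 and counted per gene with HTSeq 0.9.1, and the authors deposited read counts and FPKM values (fragment counts corrected for gene length and library size) in one table. The build is given as mm9 in the protocol and GRCm39 in the submitters' processing notes, which also list cutadapt, TopHat2 and DESeq 1.30.0, and strand-specific counting is not given in the sources used here. All 184877 deposited FPKM values above 0 were recomputed from the counts and lengths to within a relative tolerance of 1e-05. Total counts of the genes were 15069348 to 17278826 per library, and limits from counts cover counting error only.

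Counts were filtered (filterByExpr, minimum count 10, minimum total 15), leaving 13638 genes and all 38 members, scaled by TMM and fitted in one model of 4 group means with edgeR 4.0.16 in R 4.3.3 (quasi-likelihood F-test with robust moderation, 8 residual degrees of freedom). Adjusted p-values are Benjamini-Hochberg values over all tested genes, called at 0.05. The contrasts were those reported above, the averaged one as the mean of combination minus swimming and curcumin minus control, and the interaction as the difference of those. CPM levels are TMM-scaled, with a pseudocount of 0.5 on the log2 scale, and deposited FPKM values were used only to compare levels between genes. A library was left out in turn, and DESeq2 1.42.0, limma 3.58.1 (voom with a weight per group), other scalings and filters, the replicate number as a block, summed combination libraries and fits of only the compared groups served as alternatives. The procedure was tested on simulated counts that had the same spread per gene in all 4 groups. That simulation does not show how the test behaves where the spread differs between groups, as it did here.

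The members and lists were chosen with earlier results of these data known. Per-library values are given for every member called in at least 1 contrast, and up to 3 called genes are named in each other list. Coordinates in the authors' table carry no build, and promoter coordinates are those of RefSeq on GRCm38.p6, so they are not mixed. Promoters of 8 members had no entry.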

Additional observations from a re-analysis of the deposited data

How the results depend on the processing

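Under every alternative run, the median log2 fold change of the 38 genes was 0.363 to 0.42 in combination against control, 0.217 to 0.37 in combination against swimming, 0.28 to 0.433 in curcumin against control and 0.308 to 0.382 in the averaged comparison, whereas in swimming against control it ran from -0.14 to 0.0868. With DESeq2, 5 members were called in curcumin against control, 1 in swimming against control and 1 in combination against curcumin. Voom weights gave 8 in combination against control, 8 in combination against curcumin and 17 in combination against swimming, where they called 2.95%, 14.2% and 20.5% of all genes. Fits of only the compared groups gave 4 in combination against control and 6 in combination against curcumin, where they called 0.994% and 16.0% of all genes. Such fits cannot be made for the averaged or interaction contrast. Summing the combination libraries left 1 library in that group, so only medians are given. They were 0.415 in combination against control, 0.282 in combination against swimming and 0.348 in the averaged comparison. An alternative chosen after seeing the data, which also left out control 2, gave medians of 0.363, 0.279 and 0.317 in these. Its curcumin against control median was 0.28. The replicate block gave 8 members in combination against control, where it called 1.61% of all genes. After the group mean of each gene was subtracted from the log2 levels, same-numbered libraries of different groups correlated between -0.289 and 0.16. The numbers were therefore not taken as pairs. Leaving out 1 library gave 0 to 17 members in combination against control, 0 to 14 in combination against swimming, 1 to 21 in the averaged comparison, 0 to 1 in swimming against control and 0 to 2 in combination against curcumin, whose median ran between -0.0302 and 0.0415. The share of all genes called ran, in that order, over 0.0289% to 15.8%, 0.225% to 19.5%, 0.123% to 18.8%, 0.0% to 4.36% and 0.0217% to 5.17%. Depth did not limit the 38 genes, whereas the interferon ligands fell below the filter and were not tested.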
